A study of Mus musculus with 4 samples.

Results

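DNA replication licensing and fork genes were examined by bulk RNA-seq in CD24+ emergency progenitors (EPs) from mouse spleen. A list of 54 genes was read by gene symbol, out of 40213 symbols in the deposited count tables, and the counts of all transcripts with a symbol were added up. The list holds 6 genes of the MCM2-7 helicase, 9 of origin recognition and licensing, 12 of helicase activation and origin firing, 6 of the clamp and its loader, 9 of polymerases and primase, 8 of strand processing, RPA and fork protection, and 4 of nucleotide supply.

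EPs are CD11c+CD117+ cells that expand under Flt3 ligand and give rise to conventional dendritic cells of type 1. The WT group comprised 2 libraries from TopBP1 fl/fl littermates, which carry floxed alleles without Cre. The second group comprised 2 libraries labelled as TopBP1 fl/fl, CD11c-cre (TopBP1cKO), in which Cre acts in cells that express CD11c, and TopBP1cKO stands for this label below. All mice, young adults by the methods of the study, received 10 μg of Flt3L-Ig (a fusion of Flt3 ligand with an immunoglobulin part) into the peritoneum at day 0 and again at day 3, and the sort took place at day 9. No source used here gives the number of mice in a library, so P values measure the spread between libraries, which may be technical in part.

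Before a cell copies its DNA, the origin recognition complex (ORC), CDC6 and CDT1 load the ring-shaped MCM2-7 helicase onto origins in G1 phase, a step called licensing. In S phase, the kinase CDC7–DBF4 and the factors TICRR, MTBP, CDC45 and GINS turn the loaded ring into an active helicase, and polymerases, the sliding clamp PCNA and its loader follow at the fork. TopBP1 takes part in this activation step with TICRR, also called Treslin, and in the ATR checkpoint. Many genes of this machinery are targets of E2F transcription factors, and their transcripts are most abundant in dividing cells. In bulk samples, a different share of dividing cells and a different RNA level per cell cannot be told apart.

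The promoters of these genes were read first, because many genes of this machinery are targets of E2F transcription factors. RefSeq promoters (GRCm38.p6, from 250 bases before the start to 50 bases after it) were matched for 43 of the 54 genes. The E2F-type letters TTTCCCGC or TTTGGCGC stood on either strand in 13 of the 43 (30.2%), compared with 486 of 27025 genes with a promoter (1.80%). CCAAT, the letters that the factor NF-Y binds, stood on either strand in 24 of the 43 (55.8%), compared with 41.1% of all genes. Mcm3 held both E2F-type motifs. A match describes the sequence and is not a measured binding site. The 250 bases before the start of Mcm6 are shown, since they held 2 such matches. For the other genes, 16 bases on either side of the match are given. Capitals mark the E2F-type letters, in the orientation of the gene.
Mcm6, chr1:128359706-128359955 (minus strand): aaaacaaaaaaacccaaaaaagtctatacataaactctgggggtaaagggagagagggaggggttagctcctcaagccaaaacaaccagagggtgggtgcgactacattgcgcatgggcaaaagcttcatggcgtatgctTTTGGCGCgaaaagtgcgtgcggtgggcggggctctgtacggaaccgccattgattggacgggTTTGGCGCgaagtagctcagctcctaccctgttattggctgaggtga
Mcm5, chr8:75109344-75109383 (plus strand): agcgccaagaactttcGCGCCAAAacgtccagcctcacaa
Mcm7, chr5:138172025-138172064 (minus strand): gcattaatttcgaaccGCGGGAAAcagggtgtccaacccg
Cdc6, chr11:98907997-98908036 (plus strand): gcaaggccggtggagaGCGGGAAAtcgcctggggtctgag
Pola1, chrX:93632270-93632309 (minus strand): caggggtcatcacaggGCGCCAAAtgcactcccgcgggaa
Gins3, chr8:95633502-95633541 (plus strand): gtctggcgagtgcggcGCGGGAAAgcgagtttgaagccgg
Orc3, chr4:34614960-34614999 (minus strand): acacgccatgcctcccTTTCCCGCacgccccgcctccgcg
Mcm5 and Mcm7 are shown as the other helicase genes with a match before the start. Cdc6 and Pola1 are shown as a loader and a polymerase, with log2 fold changes of 1.91 and 1.11. Gins3 and Orc3 are shown because they hold the same letters and had the smallest log2 fold changes among the genes with a match before the start, 0.74 for Gins3 and 0.09 for Orc3. The median log2 fold change was 1.14 over the 13 genes with a match and 1.02 over the 30 genes with a matched promoter and no such letters.

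The libraries were close in depth, with 14561583 to 15193831 counts. Topbp1, the targeted gene, was counted 1102 and 1143 times in WT, 773 times in TopBP1cKO replicate 1 and 1279 times in TopBP1cKO replicate 2. Its log2 fold change was −0.20 (SE 0.21, FDR 0.774 by edgeR’s quasi-likelihood test), which was −0.61 without TopBP1cKO replicate 2 and 0.11 without TopBP1cKO replicate 1. The count in TopBP1cKO replicate 2 thus did not show the loss that its label names. The floxed exons are not given in the sources used here, so this count cannot check the label. Each direction below is between libraries as labelled. Itgax (CD11c), Kit (CD117) and Cd24a, which define the sort, had 5916 or more counts in every library. The genes of the list had 11 or more counts in every library, and 16 of them had fewer than 100 in a WT library. All 54 passed the filter on low counts (filterByExpr).

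Transcripts of the replication machinery took up a larger share of both libraries labelled TopBP1cKO. The 54 genes held 0.134% of the counts in WT replicate 1 (95% Wilson interval 0.132–0.136) and 0.141% in WT replicate 2 (0.139–0.143). They held 0.179% in TopBP1cKO replicate 1 (0.177–0.181) and 0.338% in TopBP1cKO replicate 2 (0.335–0.34). These intervals cover counting error only, since reads are not independent molecules. Both libraries labelled TopBP1cKO thus lay above both WT libraries, and the 2 TopBP1cKO libraries lay farther apart than TopBP1cKO replicate 1 lay from WT.

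**Figure D1:**
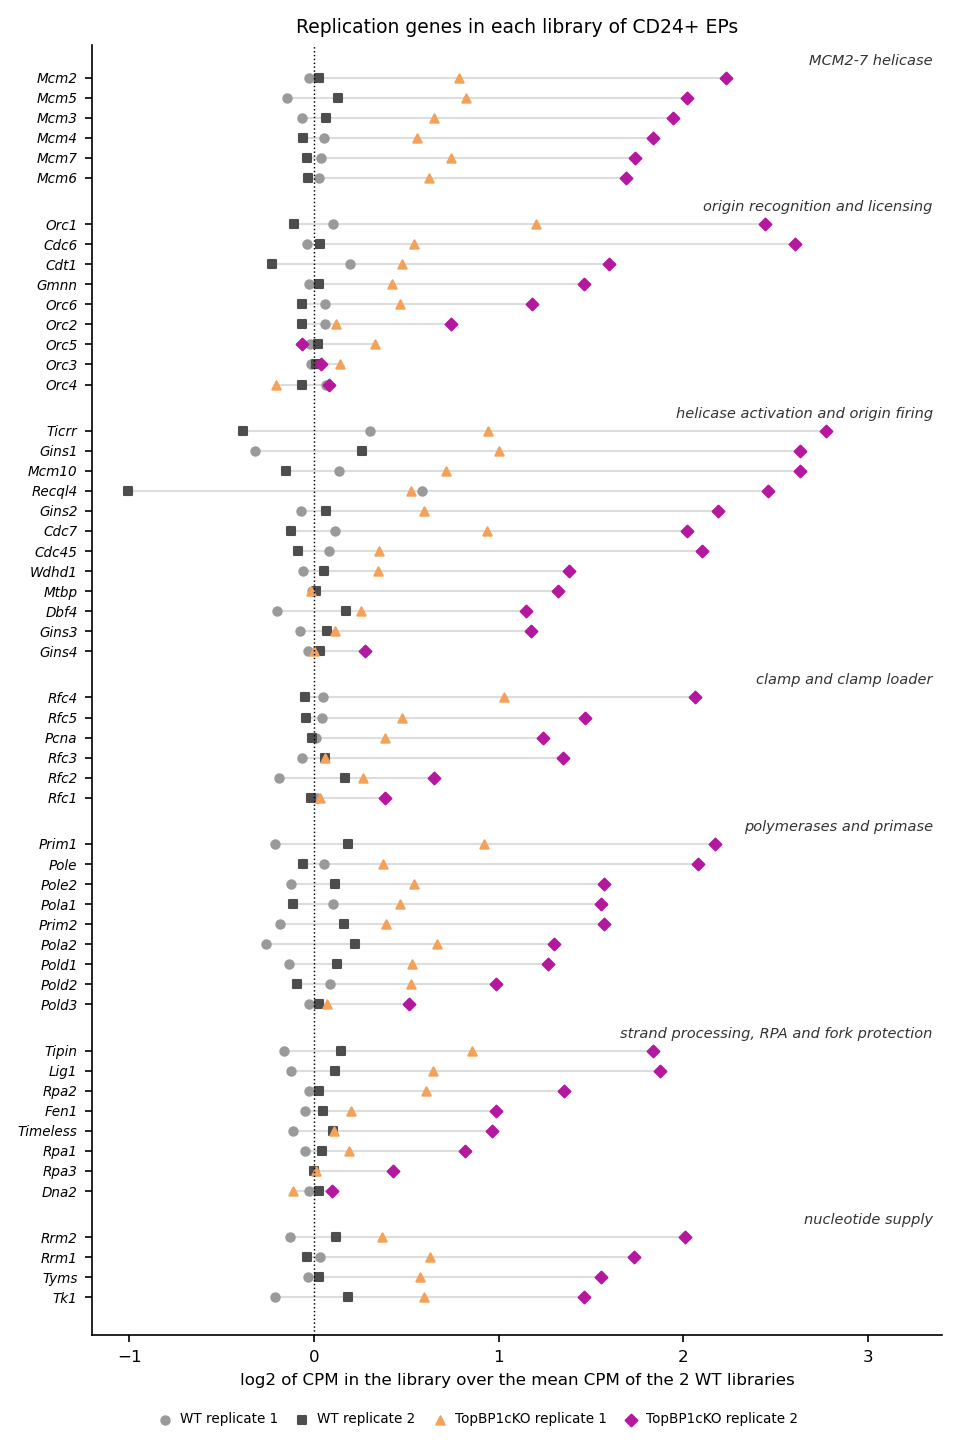
Each row is 1 of the 54 replication genes, ordered within its role by log2 fold change, and the x axis gives the log2 ratio of CPM in a library to the mean of the WT libraries. Circles and squares are WT replicates 1 and 2, triangles and diamonds TopBP1cKO replicates 1 and 2, and the grey line spans the libraries. For 48 genes both triangles and diamonds lie to the right of both WT points, and for 52 genes the diamond lies to the right of the triangle.

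None of the 54 genes passed the threshold of FDR < 0.05 in edgeR’s quasi-likelihood test, in which 0.105% of the 12393 genes tested passed (0.0807% with higher counts in TopBP1cKO). Their smallest FDR was 0.307. At an unadjusted P below 0.05, 41 of the 54 had higher and 0 had lower values in the libraries labelled TopBP1cKO, compared with 6.95% of all genes tested for higher and 3.77% for lower. For 48 of the 54, both TopBP1cKO libraries lay above both WT libraries, which held for 22.8% of all genes, and for 0 of the 54 both lay below (20.8% of all genes). The median log2 fold change was 1.09, a 2.14-fold higher level, and that of all genes was 0.01. A fold over 2 was reached by 32 of the 54, compared with 4.00% of all genes. With 2 libraries against 2, an exact permutation test of a single gene cannot go below P = 0.333.

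Other tests on the same counts placed the threshold differently. At FDR < 0.05, the DESeq2 Wald test called 12 of the 54 genes higher (0.855% of all genes), the edgeR likelihood ratio test 22 (1.45%) and limma-voom 0 (0.0726%), or 0 with sample quality weights (0.161%). The number at an unadjusted P below 0.05 was 41 by DESeq2 (5.18% of all genes), 43 by the likelihood ratio test (7.34%) and 36 by limma-voom (5.93%).

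The 2 libraries labelled TopBP1cKO differed from each other in these genes far more than the WT libraries did. The median difference between the 2 libraries, as an absolute log2 ratio, was 0.13 over the 54 genes in WT and 1.03 in TopBP1cKO. Over all genes it was 0.13 and 0.22, after 1 CPM was added to each value. That addition shrinks differences at low levels and was not made for the 54 genes. In TopBP1cKO replicate 2, 52 of the 54 genes stood above TopBP1cKO replicate 1, by a median of 2.05-fold, compared with 48.8% of all genes. More than 2-fold was reached by 29 of the 54 and by 4.09% of all genes. Between the WT libraries, 1 gene, Recql4, differed by more than 2-fold, with 31 and 11 counts. Recql4 encodes a helicase of the RecQ family that acts at origins.

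Each TopBP1cKO library was therefore set against the 2 WT libraries on its own, in fits in which the lone library is assumed to vary like the WT pair. Without TopBP1cKO replicate 2, the median log2 fold change of the 54 genes was 0.47, 29 had higher values at an unadjusted P below 0.05 (6.08% of all genes) and 9 at FDR < 0.05 (1.11% of all genes). These 9 were Mcm2, Mcm3, Mcm4, Mcm5, Mcm6, Mcm7, Lig1, Tipin and Rrm1. Without TopBP1cKO replicate 1, the median was 1.51 and 48 of the 54 passed FDR < 0.05 with higher values (11.2% of all genes). Of all genes, 20.5% passed there in either direction, so that library differed widely from WT. Without WT replicate 1, 0 of the 54 passed FDR < 0.05 (0.0697% of all genes) and 36 had higher values at an unadjusted P below 0.05 (3.95%). Without WT replicate 2, 0 passed (0.00781%) and 35 had such a P (3.36%).

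Transcripts of other cell types and states also differed between these libraries. All 11 neutrophil markers stood higher in both TopBP1cKO libraries (22.8% of all genes). Of them, 5 passed FDR < 0.05 with higher values (0.0807% of all genes), namely S100a8, S100a9, Ltf, Lcn2 and Ngp. Their summed level was 744 to 791 CPM in WT and 2192 to 2219 CPM in TopBP1cKO. The 5 early granulocyte markers, of which Mpo (myeloperoxidase) was the highest, summed to 556 and 795 CPM in WT, 1156 CPM in TopBP1cKO replicate 1 and 271 CPM in TopBP1cKO replicate 2. The 9 markers of EPs and dendritic cells summed to 15010 and 15630 CPM in WT, 14700 CPM in TopBP1cKO replicate 1 and 11690 CPM in TopBP1cKO replicate 2. This sum is dominated by its most abundant genes. The median log2 ratio to WT over the 9 was −0.10 in TopBP1cKO replicate 1 and −0.32 in TopBP1cKO replicate 2. Of the 9, 6 lay lower in both TopBP1cKO libraries (20.8% of all genes) and 1, Itgax, lay higher in both (22.8%).

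Lymphoid, plasmacytoid, macrophage and erythroid markers had lower sums than the EP and dendritic cell markers in every library. The 6 B cell markers summed to 28.2 to 32.9 CPM in WT and 33.9 to 38.8 CPM in TopBP1cKO, and the 6 T cell markers to 4.50 to 5.23 and 6.21 to 15.2 CPM. The 6 pDC markers summed to 87.1 to 93.1 and 75.02 to 78.2 CPM, and Klk1 among them was at 0 in 3 libraries and 1 count in the other. The 7 macrophage markers summed to 17.4 to 18.5 and 15.0 to 15.8 CPM. The 7 erythroid markers summed to 8.93 to 9.96 and 13.3 to 13.5 CPM. The part of other cells in the values of the replication genes was not tested.

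The helicase genes lay within a narrow range of log2 fold changes, from 1.25 to 1.68. MCM2 to MCM7 are the 6 subunits of the ring that unwinds DNA ahead of the fork. All 6 transcripts stood higher in both TopBP1cKO libraries (22.8% of all genes). Mcm2 had 25.6 and 26.7 CPM in WT, 45.2 CPM in TopBP1cKO replicate 1 and 122.9 CPM in TopBP1cKO replicate 2 (log2 fold change 1.68, SE 0.40, FDR 0.307). Mcm5 had 32.3 and 39.1 CPM in WT and 63.3 and 144.7 CPM in TopBP1cKO (1.54, SE 0.34). Mcm3 had 47.1 and 51.6 CPM in WT and 77.6 and 189.7 CPM in TopBP1cKO (1.44, SE 0.36). In each of these the WT pair lay close together and TopBP1cKO replicate 1 lay between WT and TopBP1cKO replicate 2.

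The other 3 subunits followed the same order of libraries. Mcm4 had 43.9 and 40.6 CPM in WT and 62.1 and 150.4 CPM in TopBP1cKO (log2 fold change 1.33, SE 0.35). Mcm7 had 44.2 and 42.0 CPM in WT and 72.0 and 143.6 CPM in TopBP1cKO (1.32, SE 0.29). Mcm6, whose promoter held the 2 E2F-type matches, had 79.3 and 76.1 CPM in WT and 119.5 and 250.1 CPM in TopBP1cKO (1.25, SE 0.30). The 6 genes lay 1.47-fold to 1.77-fold above the WT mean in TopBP1cKO replicate 1 and 3.22-fold to 4.70-fold above it in TopBP1cKO replicate 2. Without TopBP1cKO replicate 2, their log2 fold changes ran from 0.55 for Mcm4 to 0.82 for Mcm5. Per kilobase of transcript, their mean level in WT ran from 7.76 CPM for Mcm2 to 26.7 CPM for Mcm6, and the ring holds 1 copy of each. Of the 31-base sequences in Mcm7, 33.4% also occur in another gene, foremost the gene model Gm5487, so its count is less certain.

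**Figure D2:**
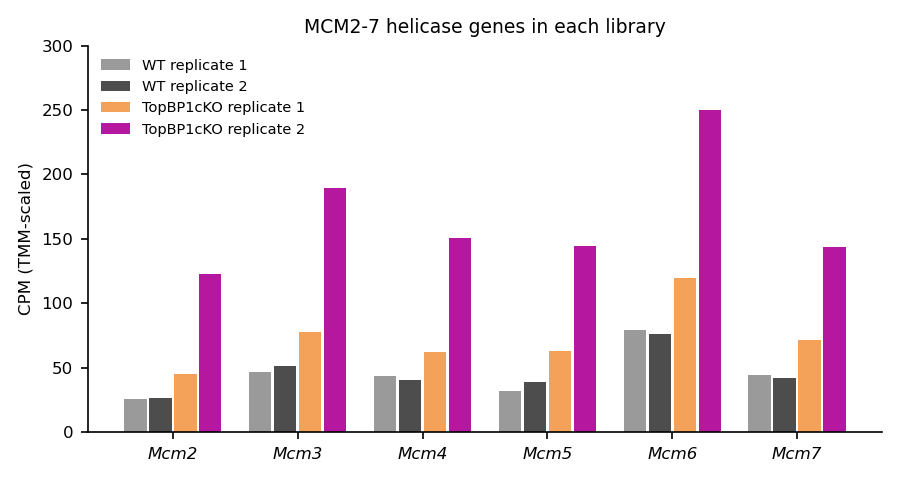
Bars give the CPM (y axis, scaled by TMM) of each MCM2-7 gene in each of the 4 libraries, with 1 bar per library and no error bar. For every gene both TopBP1cKO bars are above both WT bars, and that of TopBP1cKO replicate 2 is the highest, up to 250.1 CPM for Mcm6.

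The licensing factors split by subunit. Cdc6, the ATPase that brings the helicase to ORC, had 4.66 and 4.90 CPM in WT, 6.96 CPM in TopBP1cKO replicate 1 and 29.1 CPM in TopBP1cKO replicate 2 (log2 fold change 1.91, SE 0.58, FDR 0.346). This was 4.18-fold between the 2 TopBP1cKO libraries, the widest gap among the 54 genes. Cdt1, which carries MCM2-7 to the origin, had 13.9 and 10.4 CPM in WT and 16.9 and 36.8 CPM in TopBP1cKO (1.15, SE 0.35). Gmnn, which encodes the CDT1 inhibitor geminin, had a log2 fold change of 1.03 (SE 0.31), so the inhibitor and its target differed in the same direction.

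Among the 6 ORC genes, Orc1 had the largest log2 fold change. Orc1, which encodes the largest subunit, had 13 and 12 counts in WT and 30 and 72 counts in TopBP1cKO (log2 fold change 1.94, SE 0.53, FDR 0.312), the lowest counts of the list beside Recql4. Orc6 had a log2 fold change of 0.87 (SE 0.26). Orc2 (0.46), Orc5 (0.15), Orc3 (0.09) and Orc4 (−0.05) all had an unadjusted P over 0.05. Orc4 had 55.3 and 50.5 CPM in WT and 45.9 and 56.0 CPM in TopBP1cKO, so the groups overlapped. Of the 9 licensing genes, 5 had an unadjusted P below 0.05, all with higher values (6.95% of all genes), and the median log2 fold change was 0.87, which was 0.42 without TopBP1cKO replicate 2. For Orc2, 27.9% of the 31-base sequences also occur in another gene, foremost Nif3l1, which overlaps it and had a log2 fold change of 0.10.

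The 12 genes of helicase activation and origin firing had a median log2 fold change of 1.53, which was 0.43 without TopBP1cKO replicate 2. Ticrr, the partner of TopBP1 in loading CDC45, had 5.02 and 3.11 CPM in WT and 7.81 and 27.7 CPM in TopBP1cKO (2.13, SE 0.56, FDR 0.307), the largest log2 fold change of the list. Gins1, a subunit of the GINS ring, had 2.26 and 3.37 CPM in WT and 5.65 and 17.5 CPM in TopBP1cKO (2.03, SE 0.52). Mcm10, a fork factor that is not part of the MCM2-7 ring, had 7.84 and 6.42 CPM in WT and 11.7 and 44.2 CPM in TopBP1cKO (1.97, SE 0.54). In all 3, both TopBP1cKO libraries lay above both WT libraries (22.8% of all genes). In each, TopBP1cKO replicate 1 lay nearer to WT than to TopBP1cKO replicate 2.

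The remaining firing genes ranged widely. Recql4 had a log2 fold change of 1.80 (SE 0.70), but its 2.10 CPM in TopBP1cKO replicate 1 lay between the 2.19 and 0.73 CPM of WT. Gins2 (1.60), Cdc7 (1.58), Cdc45 (1.47), Wdhd1 (0.95) and Dbf4 (0.77) had an unadjusted P below 0.05. Mtbp, which encodes the binding partner of TICRR, had 7.63 and 7.74 CPM in WT, 7.61 CPM in TopBP1cKO replicate 1 and 19.2 CPM in TopBP1cKO replicate 2 (0.80, SE 0.39, FDR 0.522). Gins3 (0.74) and Gins4 (0.15) had a P over 0.05. Gins4 had 24.02 and 25.1 CPM in WT and 24.6 and 29.8 CPM in TopBP1cKO, so the 4 GINS genes, whose products form a complex of 1 copy each, had log2 fold changes from 0.15 to 2.03. Of the 31-base sequences in Gins2, 66.2% also occur in another gene, foremost Gse1, which overlaps it and had a log2 fold change of −0.02.

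For the sliding clamp and its loader, the median log2 fold change was 0.86, and 0.32 without TopBP1cKO replicate 2. Pcna, the clamp that tethers polymerases to DNA, had 90.1 and 89.0 CPM in WT and 116.8 and 211.5 CPM in TopBP1cKO (0.87, SE 0.25, FDR 0.337). RFC1 to RFC5 form the loader that opens the clamp. Rfc4 had 3.89 and 3.64 CPM in WT and 7.68 and 15.7 CPM in TopBP1cKO (1.64, SE 0.36), and Rfc5 had 11.02 and 10.4 CPM in WT and 14.9 and 29.6 CPM in TopBP1cKO (1.05, SE 0.31). Rfc3 (0.84) and Rfc2 (0.47) followed, the latter with a P below 0.05. Rfc1, the large subunit, had 93.6 and 91.6 CPM in WT and 94.7 and 120.8 CPM in TopBP1cKO (0.22, SE 0.14, FDR 0.627). Of the 31-base sequences in Pcna, 23.3% also occur in another gene, foremost the pseudogene Pcna-ps2.

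All 9 genes of polymerases and primase lay higher in both TopBP1cKO libraries (22.8% of all genes). Their median log2 fold change was 1.10 (0.52 without TopBP1cKO replicate 2). Prim1, the catalytic subunit of primase that starts each new strand with an RNA primer, had 4.59 and 6.02 CPM in WT and 10.0 and 23.9 CPM in TopBP1cKO (1.68, SE 0.40, FDR 0.307). Pole, the catalytic subunit of the leading-strand polymerase ε, had 11.7 and 10.9 CPM in WT and 14.6 and 47.7 CPM in TopBP1cKO (1.47, SE 0.47), and its partner Pole2 had 4.38 and 5.16 CPM in WT and 6.96 and 14.2 CPM in TopBP1cKO (1.14, SE 0.36). The polymerase α genes Pola1 (1.11) and Pola2 (1.02), the primase subunit Prim2 (1.10) and the polymerase δ genes Pold1 (0.94) and Pold2 (0.77) also had a P below 0.05. Pold3, an accessory subunit of polymerase δ, had 50.2 and 52.3 CPM in WT and 53.8 and 73.1 CPM in TopBP1cKO (0.31, SE 0.17, FDR 0.559).

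For strand processing, RPA and fork protection, the median log2 fold change was 0.62 (0.19 without TopBP1cKO replicate 2). Tipin, which with TIMELESS protects stalled forks, had 11.3 and 14.0 CPM in WT and 22.8 and 45.1 CPM in TopBP1cKO (1.43, SE 0.31, FDR 0.307). For Timeless itself, the log2 fold change was 0.60 (SE 0.26, FDR 0.467). Lig1, the ligase that joins Okazaki fragments, had 24.8 and 29.2 CPM in WT and 42.2 and 98.9 CPM in TopBP1cKO (1.38, SE 0.35). Both Tipin and Lig1 lay above both WT libraries in each TopBP1cKO library (22.8% of all genes). Without TopBP1cKO replicate 2, the log2 fold change was 0.84 for Tipin and 0.63 for Lig1.

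RPA is the heterotrimer that covers single-stranded DNA, and its 3 genes had log2 fold changes from 0.24 to 1.03. Rpa2 had 10.4 and 10.8 CPM in WT and 16.1 and 27.1 CPM in TopBP1cKO (1.03, SE 0.26). The value was 0.54 for Rpa1 (SE 0.20, FDR 0.401) and 0.24 for Rpa3 (SE 0.21, FDR 0.724). Fen1, the flap endonuclease of Okazaki fragments, had a log2 fold change of 0.65 (SE 0.24), but 79.6% of its sequence is shared with other gene models, foremost Gm10143. Dna2, a nuclease and helicase that cuts long flaps and resects DNA ends, had 169.0 and 175.1 CPM in WT and 159.2 and 183.9 CPM in TopBP1cKO (−0.00, SE 0.12, FDR 0.993). The groups overlapped for Dna2.

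The 4 genes of nucleotide supply all had an unadjusted P below 0.05 with higher values (6.95% of all genes). All 4 lay above both WT libraries in both TopBP1cKO libraries (22.8% of all genes). RRM1 and RRM2 are the subunits of ribonucleotide reductase, which makes deoxynucleotides. Rrm2 had 13.6 and 16.2 CPM in WT and 19.3 and 60.0 CPM in TopBP1cKO (log2 fold change 1.41, SE 0.45, FDR 0.352). Rrm1 had 39.5 and 37.6 CPM in WT and 59.7 and 128.2 CPM in TopBP1cKO (1.28, SE 0.31). The thymidylate enzymes followed. Tyms, thymidylate synthase, had 10.1 and 10.5 CPM in WT and 15.4 and 30.3 CPM in TopBP1cKO (1.15, SE 0.31), and Tk1, thymidine kinase 1, had 5.72 and 7.54 CPM in WT and 10.0 and 18.3 CPM in TopBP1cKO (1.09, SE 0.32). The median of the group was 1.22, and 0.58 without TopBP1cKO replicate 2.

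Per kilobase of transcript, the level of these genes in WT spanned from 0.284 CPM for Orc1 to 59.0 CPM for Pcna. Each length was that of the matched transcript with the most counts, whereas counts were summed over all transcripts. The leading transcript held 63.4% of the counts for Dna2 and 38.7% for Orc3, so such levels depend on this choice. Dna2 (41.7 CPM per kilobase) and Mcm6 (26.7) came next, followed by Rfc1 (19.5), Orc3 (18.9), Rpa3 (18.4), Gins4 (18.2), Pold3 (16.7), Mcm3 (16.3), Fen1 (14.6), Mcm7 (14.6) and Gmnn (13.8). These high-level genes had both small and large differences, with log2 fold changes from −0.00 to 0.31 for Dna2, Rfc1, Orc3, Rpa3, Gins4 and Pold3 and from 0.65 to 1.44 for Pcna, Mcm6, Mcm3, Fen1, Mcm7 and Gmnn. At the low end stood Orc1, Recql4 (0.375), Ticrr (0.564), Gins2 (0.779) and Cdc6 (1.04), with log2 fold changes of 1.60 to 2.13. Their SEs ran from 0.49 to 0.70.

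**Figure D3:**
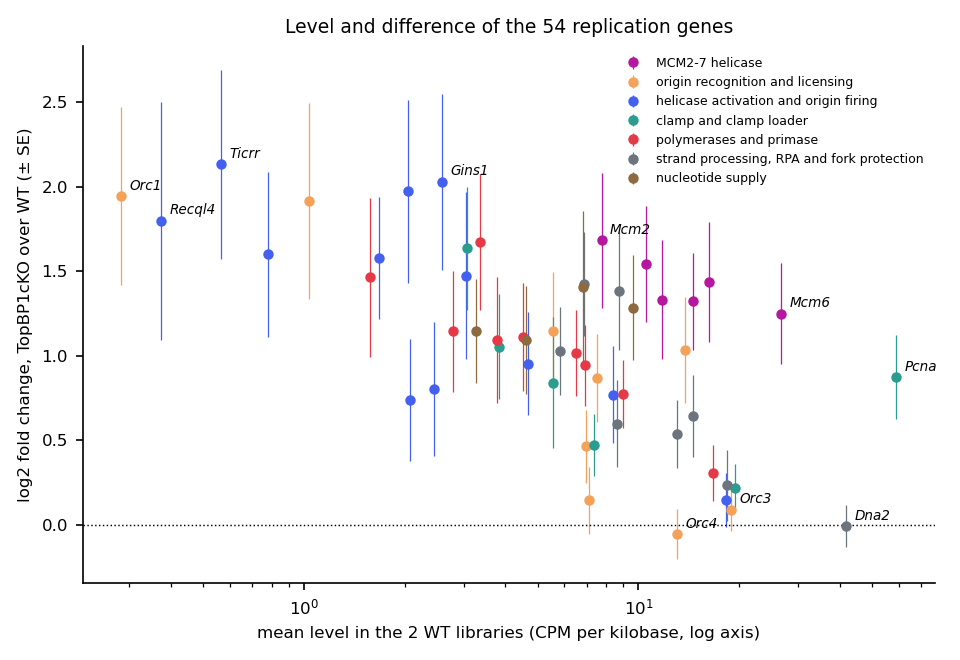
Each point is 1 of the 54 genes, coloured by role, with its mean level in the 2 WT libraries (x axis, CPM per kilobase, log scale) and its log2 fold change between TopBP1cKO and WT with its SE (y axis). Mcm6 (26.7 CPM per kilobase) and Pcna (59.0) combine a high level with log2 fold changes of 1.25 and 0.87, whereas Dna2 (41.7) lies at −0.00.

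Other genes of replication and of mitosis are given beside these values. Their lists, too, were chosen with earlier results of these data known. Of 38 other replication genes, 23 had an unadjusted P below 0.05 with higher values in TopBP1cKO (6.95% of all genes) and 1 with lower values (3.77%). Of the 38, 0 passed FDR < 0.05, and the median log2 fold change was 0.65. Those with the largest log2 fold changes were Dscc1, part of an alternative clamp loader (2.12, SE 0.47), Dtl, which directs the destruction of CDT1 (1.80, SE 0.40), and Uhrf1, which maintains DNA methylation behind the fork (1.78, SE 0.43). Those with the lowest were Pold4, a small subunit of polymerase δ (−0.47, SE 0.20), Samhd1, which degrades deoxynucleotides (−0.35, SE 0.14, FDR 0.434), and Chtf8, a partner of DSCC1 in the same loader (−0.24, SE 0.15). Samhd1 had 1175 and 1192 CPM in WT and 980.0 and 877.5 CPM in TopBP1cKO, so it lay lower in both.

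All 22 mitotic genes had an unadjusted P below 0.05 with higher values (6.95% of all genes), 0 passed FDR < 0.05 and their median log2 fold change was 1.27. Mki67, the proliferation marker, had 216.4 and 201.9 CPM in WT and 253.4 and 785.4 CPM in TopBP1cKO. Top2a, the topoisomerase that untangles sister chromatids, had 100.9 and 104.7 CPM in WT and 127.3 and 368.5 CPM in TopBP1cKO. The median log2 ratio to WT of the mitotic genes was 0.35 in TopBP1cKO replicate 1 and 1.80 in TopBP1cKO replicate 2, and that of MCM2-7 was 0.70 and 1.89. Without TopBP1cKO replicate 2, the median log2 fold change was 0.34 for the mitotic genes and 0.69 for MCM2-7. Whether the 2 lists differed from each other was not tested. Over the 13 housekeeping genes, the median was 0.06.

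**Figure D4:**
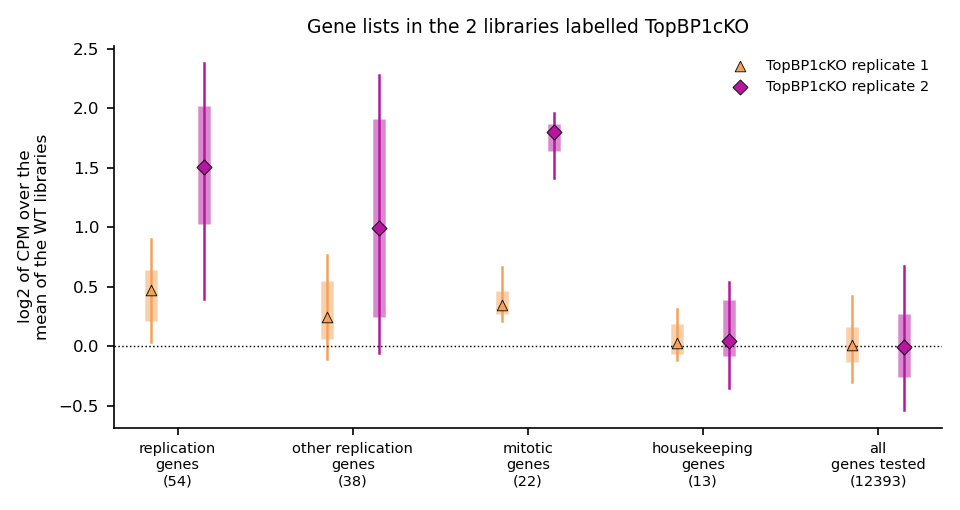
Points are the median log2 ratio of CPM to the mean of the WT libraries (y axis) over each gene list, for TopBP1cKO replicate 1 (triangles) and replicate 2 (diamonds), with thick bars from the 25th to the 75th percentile of genes, thin lines from the 10th to the 90th, and the number of genes in parentheses. The replication genes stand at 0.48 and 1.51 and the mitotic genes at 0.35 and 1.80, whereas the housekeeping genes and all genes tested stand at 0.05 or below.

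No transcript row of these genes was listed in 1 group alone at the threshold used. The 54 genes had 219 transcript rows, of which 167 held counts, and 18 genes had a single row. At 0 in both libraries of a group, with 20 or more counts in both of the other, were 0 of the 219 and 945 of all 137259 rows. Shared sequence touched 5 genes, Fen1, Gins2, Mcm7, Orc2 and Pcna, for which more than 20% of the 31-base sequences also occur in another gene. Over the other 49, the median log2 fold change was 1.10, and 37 of them had an unadjusted P below 0.05 with higher values (6.95% of all genes).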

How the data were processed

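CD24+ EPs of 2 WT and 2 TopBP1cKO libraries were compared, grouped by the sample labels. The authors deposited whole-number counts per transcript (RefSeq accession, gene symbol), not normalized. The submitters’ processing notes list fastp, STAR, Salmon, GATK and GRCm39 without versions or roles. Salmon estimates counts, so the deposited counts may be rounded estimates. The counting rule, strand setting and use of molecular identifiers are not given in the sources used here. The labels name TaKaRa RNAiso Plus and the CORALL RNA-seq V2 kit, and the study’s methods an RNeasy Mini Kit. Placeholder symbols without an accession (2558 rows) were kept as listed.

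Counts were summed per symbol. Of 19815 genes with a count, 12393 passed filterByExpr and were fitted by edgeR 4.0.16 (TMM, glmQLFit, glmQLFTest; R 4.3.3), with Benjamini–Hochberg adjustment over all of them (FDR < 0.05). The biological coefficient of variation was 15.2%. SEs are the log2 fold change divided by √F, and log2 fold changes are TopBP1cKO over WT. CPM used TMM-scaled library sizes (norm factors 0.973 to 1.02). DESeq2 1.42.0, limma 3.58.1, other scalings and filters, a replicate block and leaving out each library were alternatives. Fits were tested on simulated data. No 2 libraries were duplicates (chi-square over its degrees of freedom, 11.2 for the closest pair). Transcript lengths and shared 31-base sequences came from GENCODE M21 (GRCm38), matched for all 54 genes, and promoters from RefSeq GRCm38.p6. Since the files use GRCm39, no coordinates are given other than those of the GRCm38.p6 promoters.

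The genes and lists were chosen with earlier results of these data known. Values in every library are given for MCM2-7 and, in each other role, for the 3 genes of largest and the 1 of lowest absolute log2 fold change. Of other lists, the 3 replication genes at each end, Mki67, Top2a and marker genes at 0 or highest are named, except a marker that is not reported here. Recql4, Mtbp and Samhd1 values, and the 5 neutrophil markers past FDR < 0.05, are outside this rule and were picked once their values were known.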

Additional observations from a re-analysis of the deposited data

How the results depend on the processing

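The median log2 fold change of the 54 genes stayed positive under all 14 alternatives, from 0.47 without TopBP1cKO replicate 2 to 1.51 without TopBP1cKO replicate 1. Other scalings and filters left 0 genes at FDR < 0.05 (0.0602% to 0.0888% of all genes with higher values). The DESeq2 Wald test called 12 (0.855% of all genes) and the edgeR likelihood ratio test 22 (1.45%). Leaving out 1 library gave 0 to 48 genes, with 9 without TopBP1cKO replicate 2. In fits of all 4 libraries, genes at an unadjusted P below 0.05 ran from 36 by limma-voom to 46 with a replicate block. Of all genes, 5.93% and 7.66% had such a P with higher values. Those with both TopBP1cKO libraries above both WT libraries ran from 46 to 50, compared with 22.8% of all genes under TMM scaling. The replicate block called 38 genes (3.19% of all genes with higher values). Over all genes, the difference between the WT libraries correlated at −0.05 with that between the TopBP1cKO libraries. This value cannot decide whether same-numbered libraries were handled together, since it rests on a single difference per gene in each group. No sign changed for 49 genes. Dna2 turned to 0.0064 under upper quartile scaling and 0.022 under housekeeping gene scaling. Over the fits without 1 library, the log2 fold change ran from −0.12 to 0.094 for Dna2, −0.21 to 0.081 for Orc4, −0.064 to 0.32 for Orc5, −0.0067 to 0.28 for Gins4 and −0.022 to 1.32 for Mtbp. At 10 or more counts, 2 of the 219 transcript rows were at 0 in 1 group, as were 1411 of all 137259 rows, and at 50 or more counts 0 were (450 of all rows). Searched singly, TTTCCCGC stood in promoters of 8 genes (1.24% of all genes) and TTTGGCGC in those of 6 (0.585%), with Mcm3 in both. The cause of these shifts was not tested. For 16 genes, a WT library held fewer than 100 counts, which limits the precision of their values.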
